A study of Mus musculus with 6 samples.

Results

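Retained introns shorter than 200 bases were examined in the splicing table of N2a cells (Neuro-2a), which derive from a neuroblastoma of the mouse. The events were taken from the retained intron section of the table by the distance between the flanking exons, and 1101 of 2703 retained introns (40.7%), in 832 genes, were under 200 bases. They were set beside the 1602 retained introns of 200 bases or more and all 45595 splicing events of the table. The cells were of 2 genotypes, 3 libraries of hnRNP DL-/- cells and 3 of wild-type cells, with no other treatment named, and the series asked how alternative splicing differs between them. hnRNP DL binds RNA and belongs to the heterogeneous nuclear ribonucleoproteins, many of which act in splicing. The labels do not say whether the knockout cells are 1 clone, or whether the libraries of a genotype came from separate cultures, so the p-values below reflect no more than how these libraries vary. The table holds 2 sets of 3 libraries under the names sample 1 and sample 2, and nothing in it ties a set to a genotype. They are called set 1 and set 2 here, with each difference given as set 1 minus set 2 and no genotype attached.

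An intron is retained when it stays in the processed RNA in place of being cut out between its donor (the start, usually GT) and its acceptor (the end, usually AG, after a stretch rich in C and T). Short introns lie close to the smallest size the spliceosome can remove, and their ends are thought to be recognised across the intron, where the ends of long introns are recognised across the exons between them. A retained intron inside a coding sequence usually brings a stop codon and can hold the RNA in the nucleus or expose it to nonsense-mediated decay. A few introns that keep the frame and hold no stop are instead read through into a longer protein.

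The inclusion level, from 0 to 1, is the share of the retained form among the reads on an event's junctions after each form is scaled by its length. Reads that cross the exon-intron boundaries count for the retained form and reads that cross the exon-exon junction for the spliced form. Junction reads over all events, in which 1 read can enter several events, came to 16707466, 14037425 and 13573870 in set 1 and 18185394, 14245004 and 13501749 in set 2. The short introns held 553541, 460016 and 435126 of them in set 1 and 597243, 463870 and 434366 in set 2. The targeted gene, Hnrnpdl, has no retained intron in the table. Its most covered event, a skipped exon, had 121, 129 and 130 CPM of junction reads in set 1 and 141, 151 and 151 CPM in set 2, values that do not overlap but were not used to name the sets. Among the neuronal markers, 3 of 6 had events in the table, and none of the 4 fibroblast markers had one. The only glial marker with an event, Mbp, had 4, 6 and 5 reads in set 1 and 4, 4 and 8 in set 2. Gap43, a growth-cone protein of neurons, had 2064, 600 and 455 reads in set 1 and 2279, 1726 and 1129 in set 2, and Dbh, the noradrenaline-synthesising enzyme, had 21, 6 and 5 in set 1 and 88, 61 and 56 in set 2. Map2, a microtubule protein of neurons, had 106, 120 and 96 reads in set 1 and 103, 95 and 74 in set 2. Dbh did not overlap between the sets, while Gap43 and Map2 did, and the part of these markers in the results below was not tested.

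The sequences of the introns set out what the table calls a short retained intron. All 1101 introns were found whole inside an exon of a GENCODE vM21 transcript (GRCm38, the assembly of build mm10). The 3 shortest are shown 5′ to 3′ on the strand of the gene, with the first and the last pair of bases in capitals. Myo9b (an unconventional myosin, chr8:71348902-71348934, plus strand) held an intron of 33 bases, Hsp90ab1 (the constitutive cytosolic HSP90 chaperone, chr17:45571482-45571518, minus strand) 1 of 37 bases and Rubcn (Rubicon, an inhibitor of autophagy, chr16:32843189-32843230, minus strand) 1 of 42 bases. All 3 lie in coding sequence.
Myo9b: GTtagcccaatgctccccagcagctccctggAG
Hsp90ab1: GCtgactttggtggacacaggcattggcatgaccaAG
Rubcn: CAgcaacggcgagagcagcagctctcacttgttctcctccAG
Of the 3, the Myo9b intron alone starts with GT, while the Hsp90ab1 intron starts with GC and the Rubcn intron with CA. Each was read almost entirely as retained. The Myo9b intron had levels of 0.977, 0.954 and 0.965 in set 1 and 0.975, 0.910 and 0.951 in set 2. The Hsp90ab1 intron of 37 bases had 49418 retained and 15 spliced reads in set 1 and 50623 retained and 17 spliced reads in set 2. In the Rubcn intron there were 185 retained reads and no spliced read in set 1, where a spliced share of up to 1.62% is allowed by the count of 0, and 208 retained and 1 spliced read in set 2. The limit is 3 counts of the total and covers counting error only.

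Lengths ran to 199 bases, with a median of 101 bases and quartiles of 83 and 138 bases. Introns of 70 to 99 bases made up 508 of the 1101 (46.1%), and 28 were of 69 bases or fewer. The limit of 200 bases cut through no gap in the lengths: 3 introns measured 199 bases and 5 measured 200 bases. Just inside it, the intron of Celf3 (a neuronal splicing regulator) had a level of 0.0907 over the 6 libraries, that of Slc7a6 (an amino acid transporter) 0.983 and that of Col7a1 (a collagen) 0.242 on a mean of 6 reads per library. Just outside it, the introns of Rnpepl1, Tecpr1 and Btbd9 had levels of 0.0677, 0.115 and 0.978. On both sides of the limit lay both rarely and almost always retained introns.

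**Figure D1:**
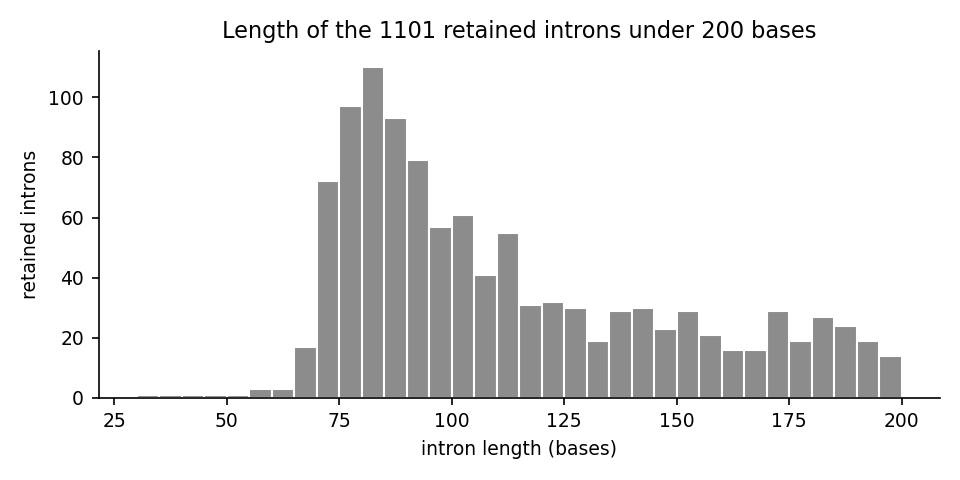
Number of retained introns under 200 bases by intron length, in bins of 5 bases (x axis, bases; y axis, introns; all 1101). Lengths of 70 to 99 bases hold 508 introns.

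Most short introns were retained at a low level, and a separate group was read almost only as retained. The 927 introns with a mean of 20 or more reads per library (84.2% of 1101, in 707 genes) had a median level of 0.0984, with quartiles of 0.0345 and 0.306. The level was under 0.05 in 312 (33.7%), above 0.5 in 166 (17.9%) and above 0.9 in 102 (11.0%). The 1292 longer retained introns with as many reads had a median of 0.0945, and 312 of them (24.1%) lay above 0.5. Levels neither rose nor fell steadily with length. Spearman's rank correlation over the 927 introns was -0.02, as a description across introns that share the same 6 libraries. The 24 introns of 33 to 69 bases had the highest median of the length classes, 0.328. The median was 0.104 in the 146 introns of 70 to 79 bases and 0.0868 in the 174 introns of 150 to 199 bases. Above 69 bases, the share of introns with a level above 0.5 differed between length classes. It was 7.53% at 70 to 79 bases and 28.9% in the 114 introns of 90 to 99 bases. It was 25.8% in the 155 introns of the class that starts at 100 bases and 16.1% at 150 to 199 bases. Levels were higher where reads were fewer (rank correlation -0.37 with the mean count), and the median was 0.254 in the 173 introns with under 50 reads per library against 0.0486 in the 313 with 200 or more. The depth and the level share the same reads, and the part of depth in the levels was not tested.

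The place of the intron in the transcript went with its level. Coding introns made up 844 of the 927 and had a median of 0.0892, while the 26 introns of the 5′ UTR had a median of 0.906, the 24 of the 3′ UTR 0.922 and the 33 in noncoding transcripts 0.884. In the 3′ UTR, 18 of 24 introns lay above 0.5, against 107 of 844 coding introns (12.7%). Within coding sequence, the frame of each intron was taken from 1 annotated coding transcript that splices it. Another transcript of the gene may give another frame. In the frame used, the 586 introns that bring a stop codon had a median of 0.0786 and the 168 that shift the frame without a stop 0.0821. The 90 introns that keep the frame and hold no stop had a median of 0.253, and 38 of them (42.2%) lay above 0.5. Of the 1002 short coding introns, 104 (10.4%) kept the frame without a stop, against 1.37% of the longer coding introns. The groups were divided by length, and a longer intron has more codons at which a stop can fall. The contrast is therefore no trait apart from length. Lengths that are a multiple of 3 made up 33.2% of all short introns and 31.5% of all longer ones. Introns that keep the frame without a stop made up 5.26% (24 of 456) of short coding introns under a level of 0.1. Above 0.9 they made up 39.0% (23 of 59). Introns whose length is a multiple of 3 were 30.3% of the 456 and 52.5% of the 59. The introns of Bsg (115 bases) and Ptbp1 (90 bases) were classed as bringing a stop, at levels of 0.9998 and 0.99945. Their frame in other transcripts was not examined.

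**Figure D2:**
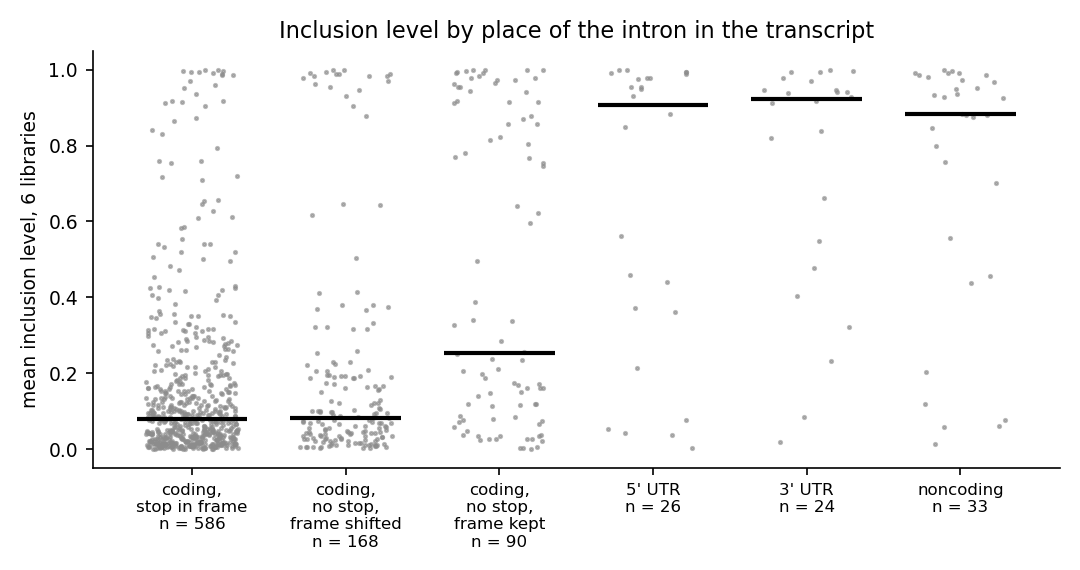
Mean inclusion level over 6 libraries (y axis, 0 to 1) of the 927 short introns with 20 or more reads per library, by place and reading frame (x axis). Each point is an intron and each bar a median: 0.0786, 0.0821 and 0.253 for the coding classes, 0.906 for the 5′ UTR, 0.922 for the 3′ UTR and 0.884 for noncoding transcripts.

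The annotation of the retained form ran the same way. GENCODE gave the retained form only as transcripts of the retained intron type for 634 of the 927 introns, with a median level of 0.0728, and at least 1 protein-coding transcript held the intron for 169, with a median of 0.803. Above a level of 0.9, 73 of 102 introns (71.6%) had such a protein-coding form, against 30 of 467 (6.42%) under 0.1. Introns at the ends of the annotated transcript used had higher levels than those inside it. The medians were 0.289 for the 34 that come first, 0.399 for the 62 that come last and 0.0923 for the 831 between. The longer introns had 0.314, 0.226 and 0.0733 in the same order. The position was taken from 1 transcript per intron that splices it, and another transcript may give another position. Introns of the UTRs were not set apart in these medians.

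The introns with the highest levels had hardly a spliced read beside a large number of retained ones. A level near 1 does not tell a retained intron from exon sequence that holds an annotated but rarely used splice junction. Which of these applied to the introns below was not tested. Actb (beta-actin), Ftl1 (ferritin light chain, chr7:45459123-45459191, minus strand), Bsg (basigin, a surface glycoprotein, chr10:79710725-79710839), the 37-base intron of Hsp90ab1, Ptbp1 (the splicing repressor PTB, chr10:79858982-79859071) and Nkiras2 (an inhibitor of NF-kappaB signalling) had the 6 highest. The Ftl1 intron is shown as an example that keeps the frame, with the end bases in capitals.
Ftl1: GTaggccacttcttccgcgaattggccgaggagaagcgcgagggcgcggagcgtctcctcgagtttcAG
Actb had 40119, 31589 and 27835 retained reads in the libraries of set 1 and 28680, 22548 and 19575 in those of set 2, and the only spliced read of the 6 libraries lay in set 2. Ftl1 had 25585 retained and 2 spliced reads in set 1 and 27694 retained and 2 spliced reads in set 2. Both introns keep the frame and hold no stop. The Ftl1 intron starts with GT but matches the donor consensus at 4 of 9 letters.

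At the other end stood other introns with very many junction reads, which were almost always removed. They are shown for contrast: Ppia (cyclophilin A, chr11:6418132-6418225, plus strand), Eef1a1 (translation elongation factor 1A, chr9:78479193-78479277, minus strand) and another intron of Hsp90ab1 (145 bases, chr17:45571620-45571764, minus strand).
Ppia: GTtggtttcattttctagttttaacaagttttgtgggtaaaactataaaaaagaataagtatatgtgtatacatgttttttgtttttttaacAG
Eef1a1: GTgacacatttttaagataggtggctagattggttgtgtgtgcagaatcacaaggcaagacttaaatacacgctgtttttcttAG
Hsp90ab1: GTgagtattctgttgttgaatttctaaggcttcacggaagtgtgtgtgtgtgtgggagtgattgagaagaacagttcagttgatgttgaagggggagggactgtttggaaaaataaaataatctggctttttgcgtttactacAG
Ppia had 80, 61 and 59 retained against 33382, 27750 and 25690 spliced reads in set 1, and 104, 77 and 46 against 40300, 29404 and 29652 in set 2. Its level was 0.00141 in set 1 and 0.00138 in set 2, and the libraries of the sets overlapped. The Eef1a1 intron of 85 bases, the most covered of all short introns, had levels of 0.00159, 0.00147 and 0.00183 in set 1 and 0.00146, 0.00199 and 0.00120 in set 2. The Hsp90ab1 intron of 145 bases had 7 retained reads in set 1 and 11 in set 2, and a level of 0.000103. Hsp90ab1 thus held an annotated intron with hardly any spliced read and, close by, an intron removed from almost every read.

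Splice sites matched the consensus less well where retention was high. GT and AG ended 1081 of the 1101 introns, GC and AG ended 13, and 7 had other ends. The donor was scored by the number of letters, of 3 exon and 6 intron bases, equal to the consensus, and the acceptor by the share of C and T in the 17 bases before its last 3. Over all 1101 introns the medians were 6 letters and 76.5%, as in the longer introns. GC content was higher in the short introns, with a median of 56.6% against 49.1% in the longer ones. From the lowest to the highest class of level, mean donor matches were 6.27, 6.07, 6.04, 5.78 and 5.47 letters, and the mean share of C and T was 75.6%, 75.7%, 72.3%, 68.7% and 67.9%. Spearman's rank correlation with the level was -0.14 for the donor, -0.22 for the share of C and T and 0.15 for GC, over the 927 introns, all of them weak. In the longer introns the donor match was 6.41 letters in the lowest class and 5.88 in the highest.

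**Figure D3:**
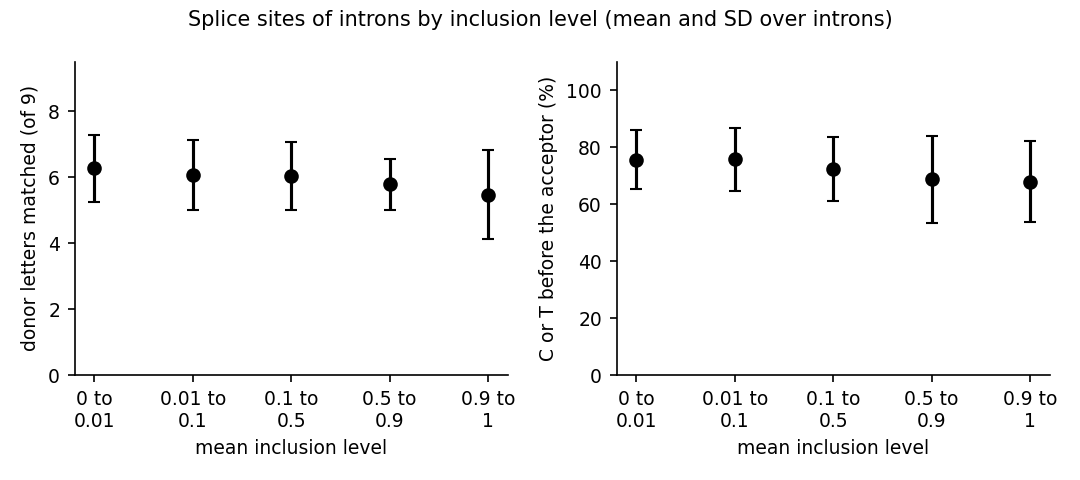
Donor letters matched to the consensus (left, of 9) and share of C or T before the acceptor (right, %) for the 927 introns by class of mean inclusion level (x axis). Points are means over introns and bars are SD: the donor mean is 6.27 in the lowest class and 5.47 in the highest, and the bars of all classes overlap.

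Of the 16 introns with other ends than GT and AG and 20 or more reads, 10 lay above 0.9, against 92 of 911 introns with GT and AG (10.1%). The 7 with neither GT nor GC first, or with no AG last, held 6 of these, and the 9 with GC and AG split into 4 above 0.9 and 4 under 0.5. Enah (an actin regulator of the Ena/VASP family, chr1:181919457-181919558, minus strand) and Cnbp (a zinc-finger nucleic acid binding protein, chr6:87845324-87845464, minus strand) are shown as an intron high and an intron low in level among those with other ends.
Enah: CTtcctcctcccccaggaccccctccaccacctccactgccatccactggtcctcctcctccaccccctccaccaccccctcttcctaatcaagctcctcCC
Cnbp: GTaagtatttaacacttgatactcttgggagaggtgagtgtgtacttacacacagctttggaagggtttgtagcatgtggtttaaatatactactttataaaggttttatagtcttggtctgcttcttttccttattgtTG
The Enah intron had 442 retained reads and no spliced read in set 1, where a spliced share of up to 0.679% is allowed by the count of 0, and 445 retained and 1 spliced read in set 2. The Cnbp intron has GT at its start and TG at its end, and the donor matches 7 of 9 letters. It was mostly removed, with levels of 0.0978, 0.0834 and 0.0913 in set 1 and 0.130, 0.0858 and 0.0568 in set 2. The sets overlapped at both introns.

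In 10 short introns the sequence at the start was the same as that at the end over 8 or more bases across the exon-intron boundaries, against a median of 2 bases over all 1101. Where the repeat is complete, the same spliced RNA could come from several pairs of ends, and the ends in the table are then 1 choice among them. The repeat took up 10 bases in Myo9b, 26 in Cep250 (a centrosome protein, chr2:155970157-155970219), 41 in Nes (nestin, an intermediate filament protein of neural progenitors, chr3:87976581-87976712) and at least 44 in Gm15127, where the search ended at 40 bases on a side. The windows of 12 exon and 12 intron bases at the start and 12 intron and 12 exon bases at the end show it, with the repeated bases in capitals.
Myo9b start: ctagacagtagGGTTAGCCCAatg
Myo9b end: agctccctggaGGTTAGCCCAgtg
Nes start: GCAGAGGACCAGGTGCTTGAGAGA
Nes end: GCAGAGGACCAGGTGCTTGAGAGA
All 10 had 20 or more reads, and 7 of them lay above 0.5. The other 3 were Dhx30 (an RNA helicase) at 0.0208, Mast1 (a microtubule-associated kinase) at 0.149 and Nes. Nes had levels of 0.369, 0.395 and 0.256 in set 1 and 0.325, 0.373 and 0.307 in set 2, which overlap.

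Some genes held short introns far apart in level. Of the 150 genes with 2 or more short introns of 20 or more reads, 44 had levels more than 0.5 apart and 36 had every level under 0.1. Qars (glutaminyl-tRNA synthetase, on chromosome 9) had the most short introns, 7. Its introns of 162, 117, 84 and 73 bases had levels of 0.00549, 0.0354, 0.00999 and 0.0628, and those of 130, 86 and 98 bases 0.985, 0.986 and 0.99, the 86-base intron on 16.5 reads per library. The 130-base intron ends at the same acceptor as the 117-base intron, and the 86-base and 98-base introns start at the same donor as the 73-base intron. Tgfb1i1 (the focal adhesion adaptor Hic-5) showed the same arrangement, with levels of 0.0313 and 0.960 for introns of 105 and 171 bases from 1 donor and 0.0169 and 0.994 for introns of 115 and 146 bases from another. Over the table, 120 short introns shared a donor or an acceptor with another short intron of the gene. Of the 101 of them with enough reads 37.6% lay above 0.5, against 15.5% of the 826 that shared none. A level weighs an intron only against its own exon-exon junction, so reads spliced at the neighbouring site are not among its spliced reads; how many of them entered as retained reads was not tested.

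The introns that keep the frame without a stop included several with many reads, which were chosen for description after their values were seen. Their sequences are shown because the whole intron can be read as codons: Prph (peripherin, an intermediate filament protein of peripheral neurons, chr15:99056937-99057032, plus strand), Hnrnpm (hnRNP M, chr17:33666530-33666646, minus strand), Hnrnpl (hnRNP L, chr7:28818533-28818643, plus strand), Fxr1 (a paralogue of the fragile X protein, chr3:34058082-34058168, plus strand) and Scg2 (secretogranin II of secretory granules, chr1:79435932-79436051, minus strand).
Prph: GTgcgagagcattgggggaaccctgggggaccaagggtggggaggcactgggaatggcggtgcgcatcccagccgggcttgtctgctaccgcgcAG
Hnrnpm: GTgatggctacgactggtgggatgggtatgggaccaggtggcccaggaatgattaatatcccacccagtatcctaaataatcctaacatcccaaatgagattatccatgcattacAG
Hnrnpl: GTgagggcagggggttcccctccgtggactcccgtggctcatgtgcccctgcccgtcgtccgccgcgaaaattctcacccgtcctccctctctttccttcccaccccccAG
Fxr1: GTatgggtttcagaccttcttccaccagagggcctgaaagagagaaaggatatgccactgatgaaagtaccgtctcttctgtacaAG
Scg2: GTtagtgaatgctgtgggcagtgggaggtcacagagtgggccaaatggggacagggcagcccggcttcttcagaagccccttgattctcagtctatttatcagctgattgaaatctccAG
Prph, of which a longer isoform is known to arise by retention of an in-frame intron, had levels of 0.144, 0.172 and 0.165 in set 1 and 0.133, 0.166 and 0.180 in set 2, on 3408 reads per library. The set means differed by 0.000678 (quasi-binomial test, adjusted p = 1). The Prph libraries of the sets overlapped. Hnrnpm had levels of 0.490, 0.552 and 0.530 in set 1 and 0.465, 0.484 and 0.453 in set 2, and every library of set 1 lay above those of set 2. The difference was 0.0569, with an adjusted p of 0.745 by the quasi-binomial test. Hnrnpl had 0.246, 0.242 and 0.258 in set 1 and 0.188, 0.228 and 0.267 in set 2, and the sets overlapped. Fxr1 had 0.316, 0.433 and 0.320 in set 1 and 0.315, 0.348 and 0.307 in set 2, with an overlap between the sets. The antisense gene Dnajc19 overlaps this intron in whole or in part. Scg2 had 0.299, 0.282 and 0.311 in set 1 and 0.284, 0.271 and 0.268 in set 2, which overlap by a narrow margin. Xpot, the tRNA exporter, stood apart from these with levels of 0.966 to 0.976 in set 1 and 0.970 to 0.980 in set 2.

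The host genes were grouped by function from gene symbols. Each list is described by its counts and median beside the median level of 0.0984 over all 927 short introns, with no test of a list, and levels were in general lower where reads were more. Cytoplasmic ribosomal protein genes held 17 short introns in 15 genes, with a median level of 0.00805 on a median of 4441 reads per library, and 3 lay above 0.5. The introns of Rps2, Rpl13a and Rpl10 had levels of 0.00354, 0.00679 and 0.0106. Proteasome and chaperone genes (21 introns, 19 with enough reads) had a median of 0.0346, including 0.00872 in Cct2, a subunit of the TRiC chaperonin. Translation factors and tRNA synthetases (25 introns, 24 with enough reads) had 0.0391, with 0.00922 in Eef2 (elongation factor 2) and 0.0429 in the intron of 71 bases of Eif4a1 (an mRNA helicase of initiation). The 4 introns of respiratory chain genes had a median of 0.0248, with 0.0380 in Ndufv1 and 0.00877 in Uqcrc1, and 0.930 in the 5′ UTR intron of Uqcrq.

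Splicing factors and hnRNPs held 29 short introns in 20 genes, with a median of 0.0907, from 0.000912 to 0.999. Ptbp1 held introns near both ends of this range, with 0.00581 in its intron of 127 bases and 0.983 in that of 107 bases. The CLK kinases, which phosphorylate SR proteins and are known for introns detained in the nucleus, held 2 short introns, with levels of 0.126 in Clk1 and 0.0723 in Clk4. RNA decay genes (12 introns) had a median of 0.101, with 0.0438 in the nuclear exonuclease Xrn2, and RNA polymerase II and Mediator subunits (13 introns) 0.123. The 6 introns of mitochondrial ribosomal protein genes had 0.107, with 0.230 in Mrps26.

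Short introns that hold a small RNA gene numbered 12, among them 2 of Snhg1 and 3 of Gas5, both noncoding hosts of snoRNAs, and 1 of the ribosomal protein gene Rpl13 with Snord68. Their levels were not alike. The Gas5 introns had levels of 0.457, 0.438 and 0.884 over the 6 libraries, the Snhg1 introns 0.0577 and 0.0773, and the Rpl13 intron 0.00416. In Gas5 the sets overlapped at each of the 3 introns.

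Between the sets, levels of short introns tended to be lower in set 1 by small amounts, and no intron passed the test across all events. The median level over the 927 introns was 0.0837, 0.0952 and 0.0944 in the libraries of set 1 and 0.0893, 0.106 and 0.104 in those of set 2. These medians overlapped between the sets, and the first library of each set, the one with the most junction reads, had the lowest. The means of the medians were 0.0911 in set 1 and 0.0997 in set 2, a difference of -0.00856. Without the first library of set 2 the difference was -0.0138 and the sets no longer overlapped, and without the first library of set 1 it was -0.00485. The level was lower in set 1 at 555 introns (59.9%) and higher at 372, with a median difference of -0.00287. The longer introns were lower in set 1 at 63%, with a median difference of -0.00415, and skipped exons at 43.1% of 28647. The moderated quasi-binomial test on retained and spliced reads called 0 of 927 short introns at an adjusted p under 0.05 and a change of 0.10 or more, where it called 11 of all 39419 events tested (0.0279%). The smallest adjusted p was 0.655, and limma on logit levels called 0. An unadjusted p under 0.05 was reached by 46 introns (4.96%), against 6.13% of all retained introns, and by 47 with limma.

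The authors' deposited table called 10 of the 1101 short introns (0.908%) at an adjusted p under 0.05 and a change of 0.10 or more, against 1.04% of all retained introns and 0.645% of all events. Of the 10, 4 were higher in set 1 and 6 were lower. With any change, the authors' deposited table had 21 short introns (1.91%) at an adjusted p under 0.05, against 2.15% of all retained introns, 14 of them lower in set 1. The 10 comprised 6 introns with 20 or more reads per library and 4 with fewer. The 6 are given with their sequences because they are the introns on which a difference between the sets would rest, again with the end bases in capitals and on the strand of the gene: Cpt1c (chr7:44965267-44965370, minus strand), Pidd1 (chr7:141440154-141440230, minus strand), Wdr90 (chr17:25849685-25849867, minus strand), Tcirg1 (chr19:3903173-3903339, minus strand) and Lztr1 (chr16:17525504-17525676, plus strand). The sixth, of Rpl31 (chr1:39368007-39368148, plus strand), lies in the 5′ UTR, and the ends are given as windows of 3 exon and 6 intron bases at the donor and 20 intron and 3 exon bases at the acceptor.
Cpt1c: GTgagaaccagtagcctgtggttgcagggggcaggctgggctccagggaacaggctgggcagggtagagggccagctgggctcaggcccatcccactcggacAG
Pidd1: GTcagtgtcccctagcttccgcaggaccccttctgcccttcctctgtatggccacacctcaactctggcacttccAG
Wdr90: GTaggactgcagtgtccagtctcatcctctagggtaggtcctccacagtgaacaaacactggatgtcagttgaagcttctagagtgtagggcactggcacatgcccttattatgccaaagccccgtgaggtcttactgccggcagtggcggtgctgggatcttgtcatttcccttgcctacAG
Tcirg1: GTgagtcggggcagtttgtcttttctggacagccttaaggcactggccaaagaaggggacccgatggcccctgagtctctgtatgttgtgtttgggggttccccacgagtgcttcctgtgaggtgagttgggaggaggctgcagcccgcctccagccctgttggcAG
Lztr1: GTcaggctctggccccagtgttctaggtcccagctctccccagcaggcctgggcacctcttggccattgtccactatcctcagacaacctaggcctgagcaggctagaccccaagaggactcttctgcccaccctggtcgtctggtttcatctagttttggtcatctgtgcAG
Rpl31 donor: tcgGTGGGG
Rpl31 acceptor: tccctgtcgcctgcgtctAGatg

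Rpl31, a protein of the large ribosomal subunit, had by far the most reads of the 6. Its retained reads were 350, 271 and 278 in set 1 and 467, 390 and 421 in set 2, and its spliced reads 232, 267 and 201 in set 1 and 247, 200 and 168 in set 2. The levels were 0.437, 0.343 and 0.415 in set 1 and 0.493, 0.5 and 0.563 in set 2. Every library of set 1 lay below those of set 2. The difference in level was -0.12, with an adjusted p of 0.00831 in the authors' deposited table, while the quasi-binomial test gave an adjusted p of 0.723. The intron comes first in its transcript, ahead of the start codon, which the acceptor window shows in its last 3 bases, and its donor matches the consensus at 4 of 9 letters.

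Lztr1, an adaptor of a CUL3 ubiquitin ligase that acts on RAS proteins, was the only 1 of the 6 with a higher level in set 1. It had 0.298, 0.315 and 0.319 in set 1 and 0.196, 0.215 and 0.2 in set 2. The sets were far apart relative to the spread within each, on 134 reads per library. The difference was 0.107, with an adjusted p of 0.0418 in the authors' deposited table and 0.745 by the quasi-binomial test.

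Pidd1, the scaffold of the caspase-2 complex known as the PIDDosome, had 0.173, 0.294 and 0.294 in set 1 and 0.391, 0.472 and 0.584 in set 2 at its intron of 77 bases. These do not overlap, and the retained reads were 17, 17 and 17 in set 1 and 34, 31 and 36 in set 2. The difference of -0.229 had an adjusted p of 0.0202 in the authors' deposited table and 0.655 by the quasi-binomial test. Another intron of Pidd1, of 158 bases (chr7:141441317-141441474), went the other way, with 0.611, 0.636 and 0.913 in set 1 and 0.488, 0.574 and 0.444 in set 2. The sets do not overlap there either, and the difference of 0.218 had an adjusted p of 0.745 by the quasi-binomial test. The highest value of set 1 at this intron rests on 1 spliced read.

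Cpt1c, the brain form of carnitine palmitoyltransferase, had 0.183, 0.191 and 0.202 in set 1 and 0.350, 0.391 and 0.588 in set 2. Its difference of -0.251 was the largest in size among introns of 20 or more reads, on a mean of 40.3 reads per library (adjusted p 0.0240 in the authors' deposited table, 0.745 by the quasi-binomial test). Wdr90, a WD-repeat protein of centrioles, had 0.125, 0.164 and 0.0476 in set 1 and 0.325, 0.362 and 0.206 in set 2. The antisense gene Gm26694 overlaps this intron in whole or in part. The use of strand in the counting is not given in the sources used here, so reads of the 2 genes cannot be told apart. Tcirg1, a subunit of the proton-pumping V-ATPase, had 4, 1 and 4 retained reads in set 1 and 10, 7 and 7 in set 2, and levels of 0.133, 0.0204 and 0.0645 in set 1 and 0.294, 0.212 and 0.2 in set 2. All 3 introns had every library of set 1 below set 2, on at most 40.3 reads per library.

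The other 4 calls of the authors' deposited table rested on few reads. Adamts10, an extracellular metalloprotease, had 9, 10 and 13 retained reads and no spliced read in set 1, where a spliced share of up to 9.38% is allowed by the count of 0, and 22, 6 and 5 retained and 11, 2 and 1 spliced reads in set 2. Bet1l (a Golgi SNARE) had 35 retained and 2 spliced reads in set 1 and 27 retained and 9 spliced reads in set 2. Jmjd8 had 6 retained reads and no spliced read in set 1, where a spliced share of up to 50% is allowed by the count of 0, and 12 retained and 6 spliced reads in set 2. Uba7, the activating enzyme of ISG15, had 1 retained and 5 spliced reads in set 1 and 7 retained and 2 spliced reads in set 2, a mean of 2.5 reads per library. Its adjusted p was 0.00177 in the authors' deposited table. The sets overlapped in Jmjd8 and Uba7 and did not in Adamts10 and Bet1l.

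**Figure D4:**
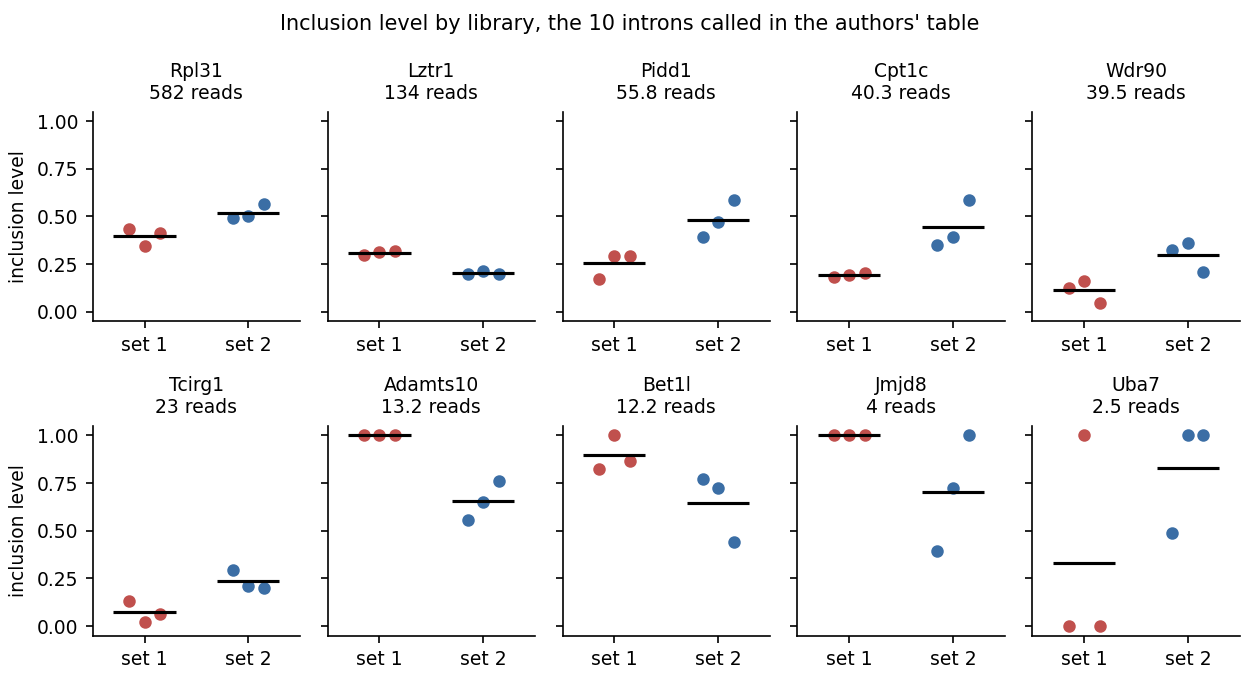
Inclusion level (y axis, 0 to 1) in each library of set 1 (left) and set 2 (right) for the 10 short introns called in the authors' deposited table, in order of mean reads per library (above each panel, 582 for Rpl31 and 2.5 for Uba7). Points are libraries and bars are means of 3; the sets overlap in Jmjd8 and Uba7.

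The 3 libraries of a set all lay on 1 side of the other 3 at 90 of the 927 introns (9.71%), in 84 genes. With so few libraries such separation is also common between sets that do not differ. It is given here and for single introns as a description and not as a test. Set 1 was the higher at 25 (2.70%), against 3.06% of all retained introns, and the lower at 65 (7.01%), against 8.16% of all retained introns. Over all events, 5.93% did not overlap in either direction. The shares of the short introns were thus close to, and below, those of retained introns as a whole. The difference was under 0.05 at 57 of the 90 introns and 0.10 or more at 12, 4 higher and 8 lower in set 1. Differences were larger where reads were fewer: their median size was 0.0391 in introns with 20 to 50 reads per library, 0.0159 with 50 to 200 and 0.0052 with 200 or more. By host gene, 0 introns of all 9 lists passed the quasi-binomial test. Of 29 introns of the splicing list, 4 had all of set 1 below set 2 and 1 above. The cytoplasmic ribosomal list had 4 of 17 below, the translation list 3 of 24 and the polymerase list 1 of 13, and the other 5 lists had none. Over all short introns the share below was 7.01%, and no list was tested against it.

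**Figure D5:**
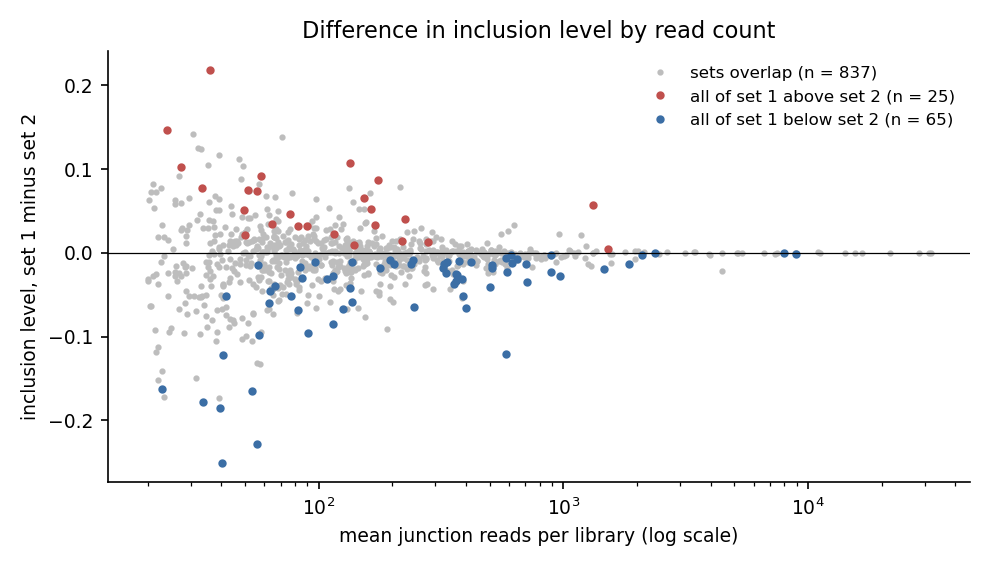
Difference in inclusion level, set 1 minus set 2 (y axis), against mean junction reads per library (x axis, log scale) for 927 short introns. Colours mark the 25 introns with all of set 1 above set 2 and the 65 with all of set 1 below set 2; the spread of the points narrows from left to right.

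The 6 largest differences each way without overlap, 1 per gene, held 6 introns besides the 158-base Pidd1 intron that the authors' deposited table did not call. They do not include every uncalled intron with a difference of 0.10 or more. Lower in set 1 were Map4k2 (a kinase of the JNK pathway), with 0.230, 0.392 and 0.345 in set 1 and 0.450, 0.515 and 0.537 in set 2, and BC017158, with 0.274, 0.293 and 0.380 in set 1 and 0.381, 0.417 and 0.643 in set 2. In BC017158 the nearest libraries of the sets were 0.380 and 0.381, which leaves almost no gap. Higher in set 1 was Mlf2, with 1, 0.846 and 1 in set 1 and 0.829, 0.778 and 0.8 in set 2, on 24 reads per library. Gba2 (a glucosylceramidase outside the lysosome) had 0.2, 0.208 and 0.25 in set 1 and 0.111, 0.116 and 0.125 in set 2, and Slx1b (a subunit of a structure-specific nuclease) 0.281, 0.359 and 0.327 in set 1 and 0.272, 0.222 and 0.197 in set 2. The 3 differences were 0.147, 0.102 and 0.0918, and in Slx1b the sets lay almost side by side. Trps1, a GATA-type repressor, had 0.989, 0.950 and 0.938 in set 1 and 0.812, 0.907 and 0.895 in set 2, a difference of 0.0875 with an adjusted p of 0.0141 in the authors' deposited table. Its intron of 138 bases keeps the frame without a stop, and 531 retained reads stood against 12 spliced in set 1 and 466 against 36 in set 2. Each of these 6 had an adjusted p of 0.745 by the quasi-binomial test.

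In 4 genes more than 1 short intron had sets that did not overlap: Snhg1, Pidd1, Ptbp1 and Urod. Snhg1 had all 4 of its short introns among them. The introns of 188, 175 and 136 bases were lower in set 1. At 188 bases (chr19:8724484-8724671) the levels were 0.0591, 0.0514 and 0.0343 in set 1 and 0.0782, 0.0614 and 0.0620 in set 2, and at 175 bases 0.0658, 0.0621 and 0.0625 in set 1 and 0.0984, 0.0962 and 0.0788 in set 2. At 136 bases they were 0.0617, 0.0429 and 0.0469 in set 1 and 0.0864, 0.0640 and 0.0684 in set 2. The 142-base intron was higher in set 1, with 1, 0.99 and 0.989 in set 1 and 0.958, 0.963 and 0.939 in set 2, and its spliced reads numbered 2 in set 1 and 18 in set 2. The adjusted p was 0.745 at each of the 4 introns by the quasi-binomial test, with differences of -0.0189, -0.0277, -0.0224 and 0.04. In the authors' deposited table the adjusted p was 0.0416, 0.0319 and 0.0248 at 188, 175 and 142 bases. In Ptbp1 the 127-base and 90-base introns lay lower in set 1, by -0.00262 and -0.000687. The 90-base intron had 4 spliced reads in set 1 and 1 in set 2, so its lack of overlap rests on single reads. Urod, an enzyme of haem synthesis, had both introns higher in set 1, with 16 and 17 retained reads in set 1 and 3 and 7 in set 2.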

How the data were processed

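RNA of 6 N2a libraries, 3 per genotype, came from Trizol extracts and a NEBNext Ultra kit, per the labels' protocols. Bowtie2 (2.2.3), HISAT2 (2.1.0), HTSeq (0.6.0) and build mm10 stand, without roles, in the submitters' processing notes. Per the file headers, the authors deposited an rMATS table with read counts per junction form, form lengths, inclusion levels as a fraction, p-values, adjusted p-values and level differences. The rMATS version and its annotation were not given in the sources used here. The retained form measured 148 bases plus the intron length up to 150 bases, and the spliced form 149 bases. Levels recomputed from the counts matched the deposited fractions to within 0.0005.

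The members, gene lists and tests were chosen with earlier results of these data known. Introns with a mean of 20 or more reads were tested with the whole table (39419 of 45595 events) by a moderated quasi-binomial test in R 4.3.3 with limma 3.58.1. Its dispersion prior ran along the reads of the rarer form, using events that had at least 5 of them, with a dispersion of at least 1. P-values were adjusted by Benjamini-Hochberg over all events. The test was also run on simulated counts with a fixed overdispersion that was not estimated from these data. That run does not show how large a change the test could find here. The other 174 introns entered only counts of members and the authors' calls. Named introns were the authors' calls, the 6 largest differences each way without overlap, the 5 smallest p, the 6 highest levels, the 6 with the most reads, the 3 shortest, the 3 nearest to 200 bases on each side, up to 4 per gene list and those without GT and AG ends; the read-through, repeat, small RNA, shared-site, Snhg1 and Urod introns were added after their values were seen. Sequence, place and frame came from GENCODE vM21, the frame from 1 spliced coding transcript per intron. Alternatives covered the filter, the prior, limma, the change asked of a call, a stricter length limit and leaving out each library. The sequence of 1 intron described is not reported here.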

Additional observations from a re-analysis of the deposited data

How the results depend on the processing

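The quasi-binomial test called 0 of the short introns under every filter on counts (10, 50 or none), under both smaller changes asked of a call, with limma on logit levels, with the prior from events of 1 or more reads of the rarer form, and with each library left out (0 to 0). A prior along the total count called 1, Rpl31 (adjusted p = 0.0382), and the cause was not tested. For the 6 introns of the authors' deposited table with enough reads, no setting turned the direction. The adjusted p of Rpl31 ran over the settings from 0.0382 to 0.850, and that of Pidd1 from 0.155 to 0.850. The authors' deposited table called 3 short introns at an adjusted p under 0.01, 6 with a change of 0.20 or more, 21 with no minimum change and 6 with 20 or more reads, against 10. The 90 introns without overlap became 158 to 222 with 1 library left out, a choice added after seeing the data, since 2 libraries overlap less easily with 3; they were lower in set 1 in 97 to 170 and higher in 47 to 68. The difference between the sets' mean medians, -0.00856, kept its sign under each alternative, ran from -0.0157 to -0.00586 under other filters and scaling and from -0.0138 to -0.00485 with a library left out, and the sets' medians stopped overlapping only without the first library of set 2. No paired analysis was possible because the columns of the table carry no replicate numbers. Depth limits the comparison: differences of introns with under 50 reads per library rest on small counts in each library.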
